A study of Mus musculus with 21 samples.

Results

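Smooth muscle contracts through actin and myosin filaments that are regulated by calcium and anchored to dense bodies and to the cell surface. The genes described here encode that apparatus: 32 genes chosen by symbol, all 32 of which stood among the 31053 genes of the deposited single-cell table. They comprise actins, the motor and light chains of myosin with their kinase, thin filament regulators, intermediate filament proteins, dense body and adhesion proteins, ion channels and the coactivator myocardin. In smooth muscle generally, calcium activates the light chain kinase, phosphorylated myosin pulls on actin, and myocardin with serum response factor (SRF) drives many of the genes through a DNA word called the CArG box. In the colon such genes mark the muscle layers, the muscularis mucosae and the myofibroblasts under the crypts. Some of them, such as those for vinculin and talin, also serve adhesion in many other cells. The question put to the data was which of the 32 genes were restricted to contractile cells and which were shared with fibroblasts.

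The series concerns colon stromal cells of C57BL/6 mice and the kinase gene Map3k2. ATAC-seq, which reads open chromatin by transposase insertion, was run on 4 populations sorted from the colons of male mice aged 12 weeks, with 2 libraries each: Myofibroblast, MRISC, CD34 SP and CD138 (sorted as CD34-CD138+). All of these were gp38+ cells negative for CD45, Epcam and CD31, further split with antibodies for each subset. The 1 single-cell RNA library came from gp38+CD90+ stromal cells of the colon lamina propria of wild type female mice aged 12 weeks, given 2% dextran sulfate sodium (DSS), which injures the colon, and taken at D3. Nothing below compares injured with uninjured colon. The 12 bulk colon RNA samples were not analysed here. The peak files held 1 list per population and the RNA came from 1 library, so no test between populations or cell classes was possible, and every fold below describes these libraries.

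The sequences that bear on the result are CArG boxes, read here as CC, 6 bases of A or T, and GG. In RefSeq promoter windows of 300 bases (250 before to 50 after the start, GRCm38.p6), found for 27 of the 32 genes, 5 genes held a box. No window was found for Tagln, Myh11, Actg2, Dtna and Myocd, so their promoter windows were not searched. Acta2 held 2 near matches with 1 mismatch in the core, from -84 and -34, which are not printed. Beyond these windows, a box also lay under a Myofibroblast peak within 1 kb of a start of Tagln, Cnn1, Tpm2 and Flna, among others. The boxes of the 5 genes are printed on the gene's strand with up to 30 bases on either side and the box in capitals.
Actc1, chr2:114052883-114052952, minus strand, box from -47: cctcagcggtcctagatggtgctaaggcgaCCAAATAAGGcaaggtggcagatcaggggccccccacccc
Myl9, chr2:156775273-156775342, plus strand, box from -161: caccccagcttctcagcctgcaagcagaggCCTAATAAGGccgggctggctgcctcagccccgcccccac
Myl6, chr10:128493020-128493089, minus strand, box from -50: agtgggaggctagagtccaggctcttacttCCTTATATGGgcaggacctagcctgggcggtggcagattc
Vcl, chr14:20929148-20929210, plus strand, box from -227: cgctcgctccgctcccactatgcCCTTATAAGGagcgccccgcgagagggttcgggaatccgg
Ldb3, chr14:34588682-34588746, minus strand, box from -35: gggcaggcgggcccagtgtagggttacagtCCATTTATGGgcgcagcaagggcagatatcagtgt

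A further set of boxes lay in introns, under Myofibroblast peaks above the 80th percentile of the authors' score in that list. 6 of them are printed from the same build because they sit in genes of different roles, and what the 4 peak lists held at each is given with the peaks.
Lmod1 intron, chr1:135347907-135347976, plus strand: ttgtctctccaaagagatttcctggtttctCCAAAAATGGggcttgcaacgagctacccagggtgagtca
Csrp1 intron, chr1:135734315-135734384, plus strand: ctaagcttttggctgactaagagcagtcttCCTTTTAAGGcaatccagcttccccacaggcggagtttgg
Mylk intron, chr16:34958081-34958150, plus strand: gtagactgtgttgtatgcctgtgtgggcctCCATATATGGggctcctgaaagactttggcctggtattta
Pgm5 intron, chr19:24770498-24770567, minus strand: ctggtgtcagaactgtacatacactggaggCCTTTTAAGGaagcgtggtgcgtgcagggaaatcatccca
Itga8 intron, chr2:12168740-12168809, minus strand: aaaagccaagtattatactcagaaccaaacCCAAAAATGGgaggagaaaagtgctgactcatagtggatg
Tpm1 intron, chr9:67041009-67041078, minus strand: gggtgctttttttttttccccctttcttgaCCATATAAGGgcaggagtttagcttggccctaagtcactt

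Of 11484 barcodes in the library, 11376 were kept, with a median of 6052 UMIs (unique molecular identifiers, each a counted RNA molecule). Clustering was done with the 32 genes left out, so that they could not define the cell classes they are compared between. A cluster of 1095 cells (9.63% of those kept) passed 15 of 22 fixed smooth muscle or myofibroblast markers, none of them among the 32 genes, and is called contractile-like. Its leading genes were Hhip, Tinagl1, Cdh6 and Pcp4l1. A total of 9813 cells in 5 clusters (86.3%) held fibroblast markers and are called fibroblast-like, and a cluster of 79 cells led by Procr, Ednrb, Sox6 and Wif1 passed all 10 crypt-top fibroblast markers. Their median depths were close, at 5790 UMIs in contractile-like, 5941 UMIs in crypt-top-like and 6068 UMIs in fibroblast-like cells. The contractile-like cluster also passed 4 of 11 pericyte markers (Rgs5, Abcc9, Mcam and Ednra), while Notch3 and Higd1b of the same list were at 0 UMIs there. Both were low in fibroblast-like cells as well (0.550 and 0.0324 CPM). The summed pericyte marker level was 434 CPM (UMIs per 1000000 UMIs of the pooled cells of a class) in contractile-like, 444 CPM in crypt-top-like and 112 CPM in fibroblast-like cells. Pln, a calcium pump inhibitor on the smooth muscle list, was also at 0 UMIs, and the sort gene Pdpn (gp38) had 108 CPM in contractile-like against 308 CPM in fibroblast-like cells.

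Contractile genes fell along a wide range rather than into 1 pattern. A level at least 8 times that of fibroblast-like cells, called restricted here, was held by 17 of the 32 genes, and 1.59% of the 6412 genes with at least 20 CPM in either class reached it. A further 11 genes were enriched (2 to 8 times), 1 was shared (under 2 times) and 3 were low (under 20 CPM in both classes). The 29 genes above the low limit had a median fold of 9.69, beside 1.06 over all 6412 genes. At least 2 times was reached by 28 of the 29, beside 7.49% of all genes. Against the highest of the 5 fibroblast-like clusters, 15 genes still reached 8 times, and the share of all genes that did so was not computed.

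**Figure D1:**
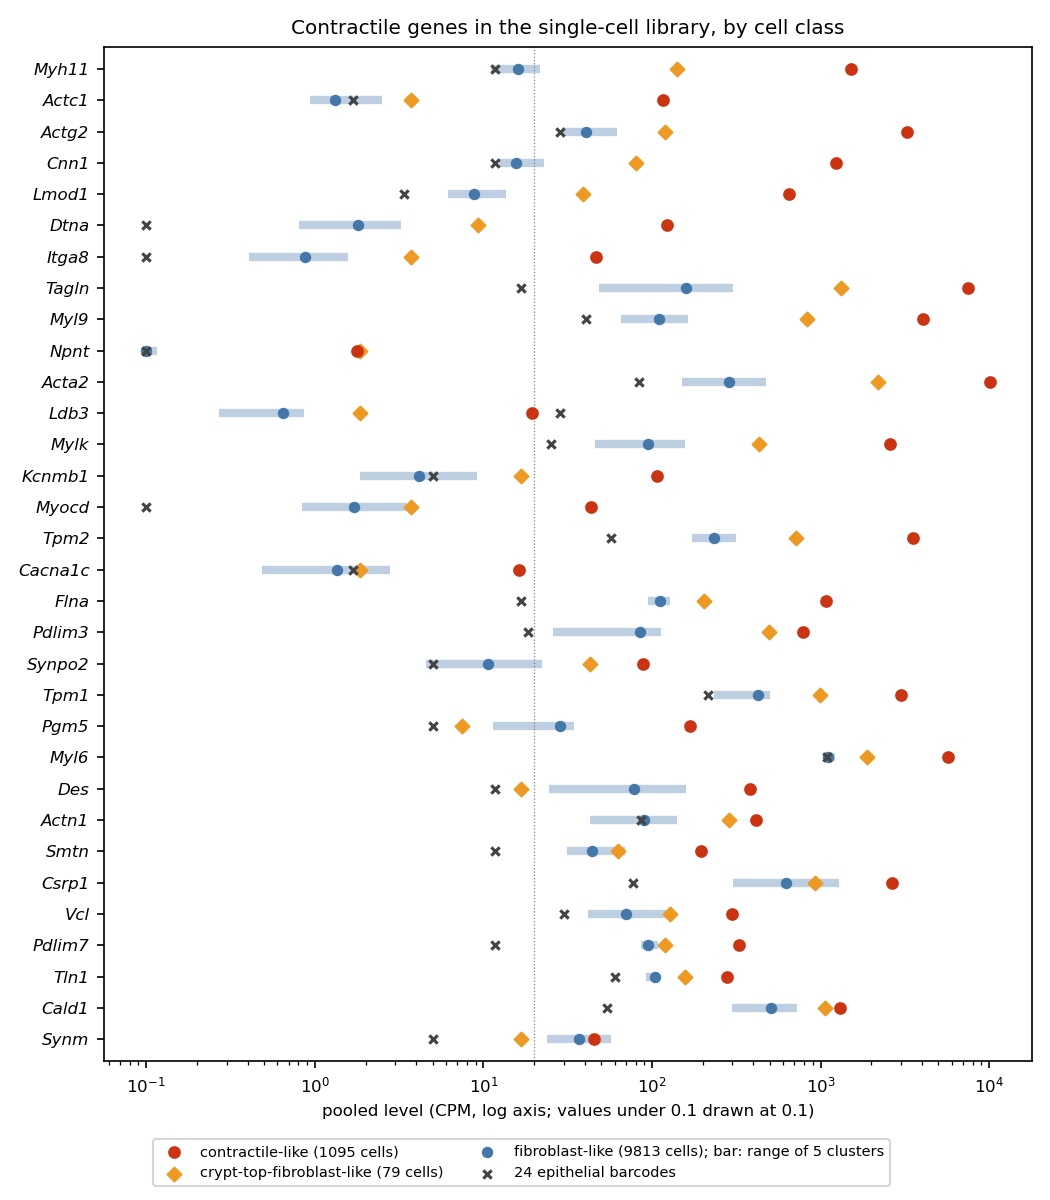
Pooled level of each of the 32 genes (CPM, log axis) in contractile-like cells, crypt-top-like cells, fibroblast-like cells (point, with a bar for the range of their 5 clusters) and 24 epithelial barcodes, ordered by contractile-like over fibroblast-like level; the dotted line marks 20 CPM. Myh11 at the top had 1505 CPM against 15.9 CPM, and Synm at the bottom had 45.1 CPM against 37.0 CPM.

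Among the actins, Acta2 (smooth muscle alpha-actin) had 10087 CPM in contractile-like cells (95% counting interval 10014 to 10160) and 286 CPM in fibroblast-like cells (282 to 291), a ratio of 35.2 (34.6 to 35.8). Intervals here and below cover counting error only, and 1 library gives no replicate check. Actg2, the gamma-actin of enteric smooth muscle, had 3267 CPM in contractile-like and 40.3 CPM in fibroblast-like cells, a ratio of 81.0 (77.7 to 84.4). Actc1, the alpha-actin known best from heart, had 115 CPM in contractile-like and 1.31 CPM in fibroblast-like cells, a ratio of 88.1 (70.1 to 112). The 3 actins thus had ratios of the same order at very different levels. They also differed in how many cells held them. After thinning every cell to 3000 UMIs, Acta2 was found in 99.9% of contractile-like and 37.5% of fibroblast-like cells, while Actc1 was found in 15.9% of contractile-like and 0.404% of fibroblast-like cells. Actins are near-identical in their coding parts, and no source used here says how reads common to several of them were counted.

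The smooth muscle myosin heavy chain gene Myh11 had the highest ratio of the measured genes. It had 1505 CPM in contractile-like cells (11037 UMIs) and 15.9 CPM in fibroblast-like cells (985 UMIs), a ratio of 94.4 (88.4 to 101). Thinned to 3000 UMIs, 94.3% of contractile-like and 3.76% of fibroblast-like cells held it. Myl9, the regulatory light chain, had 4044 CPM in contractile-like and 110 CPM in fibroblast-like cells (36.6 times). Mylk, the kinase that phosphorylates that chain, had 2594 CPM in contractile-like and 94.8 CPM in fibroblast-like cells (27.4 times). Myl6, the essential light chain that non-muscle myosin also uses, was only enriched: it had 5664 CPM in contractile-like and 1105 CPM in fibroblast-like cells (5.13 times), and its level in the 5 fibroblast-like clusters ranged 1.16 times.

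Thin filament regulators ran across the range. Cnn1 (calponin 1) had 1239 CPM in contractile-like cells (1214 to 1265) and 15.6 CPM in fibroblast-like cells (14.6 to 16.6), a ratio of 79.6 (74.4 to 85.1). Lmod1 (leiomodin 1, which nucleates actin filaments) had 649 CPM in contractile-like and 8.79 CPM in fibroblast-like cells, a ratio of 73.9 (67.6 to 80.9). Tagln (SM22) had 7520 CPM in contractile-like cells (7457 to 7583) and 158 CPM in fibroblast-like cells (155 to 162), a ratio of 47.5 (46.4 to 48.5). The tropomyosins, which lie along actin and control access of myosin, stood on opposite sides of the 8-fold limit. Tpm2 had 3549 CPM in contractile-like and 233 CPM in fibroblast-like cells (15.2 times), and Tpm1 had 2992 CPM in contractile-like and 425 CPM in fibroblast-like cells (7.05 times). Smtn (smoothelin) was enriched 4.43 times, with 195 CPM in contractile-like and 44.1 CPM in fibroblast-like cells. Cald1 (caldesmon) had 1303 CPM in contractile-like and 511 CPM in fibroblast-like cells, a ratio of 2.55 (2.49 to 2.61), and was found in 96.6% of contractile-like and 73.3% of fibroblast-like cells at 3000 UMIs.

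The intermediate filament genes were the least restricted of the roles. Des (desmin), widely used as a muscle marker, had 381 CPM in contractile-like cells (367 to 396) and 78.7 CPM in fibroblast-like cells (76.5 to 80.9), a ratio of 4.85 (4.63 to 5.08). It was found in 41.9% of contractile-like and 16.3% of fibroblast-like cells at 3000 UMIs, in 13.6% of immune-led and 13.6% of mesothelium-like cells, and in 0 of 23 epithelial barcodes. Synm (synemin, a partner of desmin) was the 1 shared gene, with 45.1 CPM in contractile-like cells (40.4 to 50.3) and 37.0 CPM in fibroblast-like cells (35.5 to 38.6), a ratio of 1.22 (1.08 to 1.37). In fibroblast-like cluster 2, led by Kcnk2 and Tnc, Synm reached 56.9 CPM and so stood above the contractile-like level.

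Genes for dense body, adhesion and cell surface proteins ran from restricted to enriched. Dtna (alpha-dystrobrevin, of the dystrophin complex) had 123 CPM in contractile-like and 1.81 CPM in fibroblast-like cells (68.1 times), and the integrin gene Itga8 had 46.5 CPM in contractile-like and 0.874 CPM in fibroblast-like cells (53.2 times). Flna (filamin A), Pdlim3 (an actinin-binding PDZ-LIM protein) and Synpo2 (myopodin, an actin bundler) were restricted by a small margin, with ratios of 9.69, 9.29 and 8.31 and contractile-like levels of 1083, 786 and 88.2 CPM. The interval for Synpo2 (7.44 to 9.27) spans the 8-fold limit, so counting error alone leaves its class unsettled. Against the highest fibroblast-like cluster the ratios were 8.45 for Flna, 6.91 for Pdlim3 and 3.98 for Synpo2. Pgm5 (aciculin), Actn1 (alpha-actinin 1), Csrp1 (a LIM-only protein that binds actinin), Vcl (vinculin), Pdlim7 and Tln1 (talin 1) were enriched, with ratios of 5.88, 4.61, 4.24, 4.23, 3.47 and 2.67. Vcl had 297 CPM in contractile-like and 70.3 CPM in fibroblast-like cells (ratio interval 4.01 to 4.45). Pdlim7 had 327 CPM in contractile-like and 94.4 CPM in fibroblast-like cells (3.30 to 3.64). Tln1 had 278 CPM in contractile-like and 104 CPM in fibroblast-like cells (2.54 to 2.81).

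Of the channel and regulator genes, Kcnmb1, the beta subunit of the large-conductance potassium channel, had 107 CPM in contractile-like and 4.14 CPM in fibroblast-like cells (25.9 times). Myocd (myocardin) had 43.6 CPM in contractile-like and 1.72 CPM in fibroblast-like cells (25.4 times). Low members were Cacna1c (pore of the L-type calcium channel), with 16.4 CPM in contractile-like and 1.36 CPM in fibroblast-like cells, Ldb3 (a Z-disc PDZ-LIM protein), with 19.4 CPM in contractile-like and 0.647 CPM in fibroblast-like cells, and Npnt (nephronectin, a ligand of the integrin that Itga8 helps to form). The ratios were 12.0 (9.03 to 16.1) for Cacna1c and 29.9 (20.9 to 43.6) for Ldb3. Npnt had 1.77 CPM in contractile-like cells (13 UMIs) and 0.0486 CPM in fibroblast-like cells (3 UMIs), a ratio of 36.5 (10.0 to 200). Its highest level was 79.4 CPM in the 70 mesothelium-like cells, and so it did not go with the contractile cluster here. Ldb3 was also found at 28.6 CPM (17 UMIs) in the 24 epithelial barcodes, above its contractile-like level.

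Within the fibroblast-like cells the genes were not level. Of 23 members with at least 20 CPM in 1 of the 5 clusters, 16 differed at least 2 times between the highest and lowest cluster, beside 19.5% of all genes. The highest level fell in cluster 3 for 15 of the 23 and in cluster 2 for 5, and the lowest in cluster 4 for 11 and in cluster 1 for 9. The share of all genes highest or lowest in each cluster was not computed, so these counts are not shown to be particular to the members. Cluster 3 met the fibroblast-like rule at its limit, with 3 fibroblast markers above the contractile-like level against 7 to 10 in the other 4 clusters. Cluster 3 (1518 cells) was led by Nrg1, Saa3, Mmp10 and Lcn2, among them genes known from inflamed tissue, cluster 1 by Cxcl13 and Mgp, and cluster 4 by Ptx3, Ebf1 and Pi16. Csrp1 had 1281 CPM in cluster 3, 589 CPM in cluster 2, 569 CPM in cluster 0, 358 CPM in cluster 1 and 304 CPM in cluster 4. Des was also highest in cluster 3, at 160 CPM, but its order was otherwise different. It had 86.1 CPM in cluster 0, 62.1 CPM in cluster 2, 60.3 CPM in cluster 4 and 24.6 CPM in cluster 1. Acta2 was at 477 CPM in cluster 3 and 472 CPM in cluster 2, above 185, 174 and 150 CPM in clusters 4, 0 and 1, while Flna, Tln1, Pdlim7 and Myl6 ranged by less than 1.5 times over the 5 clusters.

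Free RNA in droplets gives UMIs to cells that do not make a gene, so the fibroblast-like levels were set against 546978 empty droplets (barcodes with 1 to 100 UMIs), where the 32 genes took 0.939% of the UMIs. Markers that fibroblasts should lack gave the scale: 9 epithelial markers stood in fibroblast-like cells at 7.93% of their empty-droplet level (7.44 to 8.44), and 10 immune markers at 31.5% (30.6 to 32.4). Myh11 stood at 9.66% of its empty-droplet level (8.76 to 10.6), Dtna at 10.5%, Actc1 at 10.7%, Actg2 at 11.4%, Cnn1 at 11.8%, Lmod1 at 11.8% and Itga8 at 14.5%. Myl9 stood at 21.0%, Acta2 at 21.2%, Tagln at 22.4%, Mylk at 28.4% and Kcnmb1 at 30.4%. These 12 restricted genes lay between the marker lists, so that their pooled fibroblast-like levels are not shown to exceed background. In their highest fibroblast-like cluster, however, Acta2 stood at 35.2%, Tagln at 42.8%, Mylk at 47.3% and Kcnmb1 (9.19 CPM there) at 67.3%. These 4 were above the pooled level of both lists, and the rest of the 12 were not. Taking free RNA off at the epithelial marker level moved the contractile-like over fibroblast-like ratio to 524 for Myh11, 338 for Actc1, 279 for Dtna, 264 for Actg2, 243 for Cnn1, 222 for Lmod1, 72.9 for Tagln and 55.8 for Acta2, while Des stood at 5.34 and Synm at 1.25. The size of the high ratios thus depends on the background taken off. At the other end Des stood at 72.2% (65.7 to 79.6), Cald1 at 88.0%, Csrp1 at 93.3%, Synm at 94.2% and Tln1 at 99.1% of the empty-droplet level, well above both marker lists. The immune-led cluster, in which 7 fibroblast markers also stood above the contractile-like level, had levels near those of fibroblast-like cells: Cald1 had 464 against 511 CPM, Csrp1 426 against 623 CPM, Synm 39.4 against 37.0 CPM, Tln1 104 against 104 CPM and Acta2 267 against 286 CPM. The part of free RNA in the fibroblast-like levels was not tested further.

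**Figure D2:**
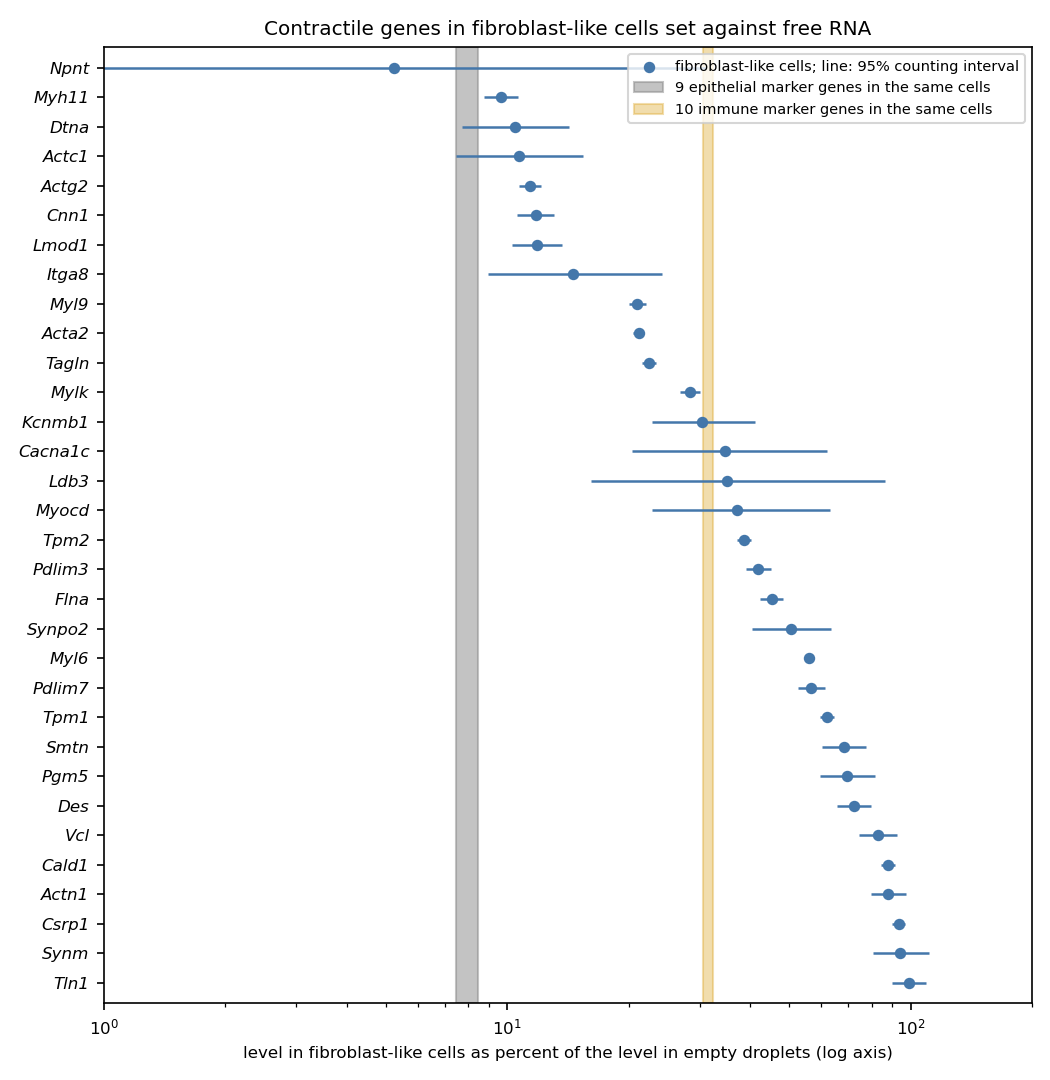
Level of each gene in fibroblast-like cells as a percentage of its level in empty droplets (log axis; lines are 95% counting intervals), with bands for 9 epithelial and 10 immune marker genes in the same cells. From Myh11 (9.66%) to Itga8 (14.5%) the restricted genes sit near the epithelial band at 7.93%, and Csrp1, Synm and Tln1 sit above 90%.

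Summed over the 32 genes, a contractile-like cell gave a median of 5.48% of its UMIs to them (5th to 95th percentile 2.12 to 8.78%), a crypt-top-like cell 0.940% and a fibroblast-like cell 0.371% (0.186 to 0.860%). A total of 24 of 9813 fibroblast-like cells (0.245%) reached the 5th percentile of contractile-like cells. Thinned to 3000 UMIs, the median number of the 32 genes found per cell was 20 in contractile-like, 11 in crypt-top-like and 6 in fibroblast-like cells, with 7 in mesothelium-like cells, 6 in the immune-led cluster and 3 in the epithelial barcodes.

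**Figure D3:**
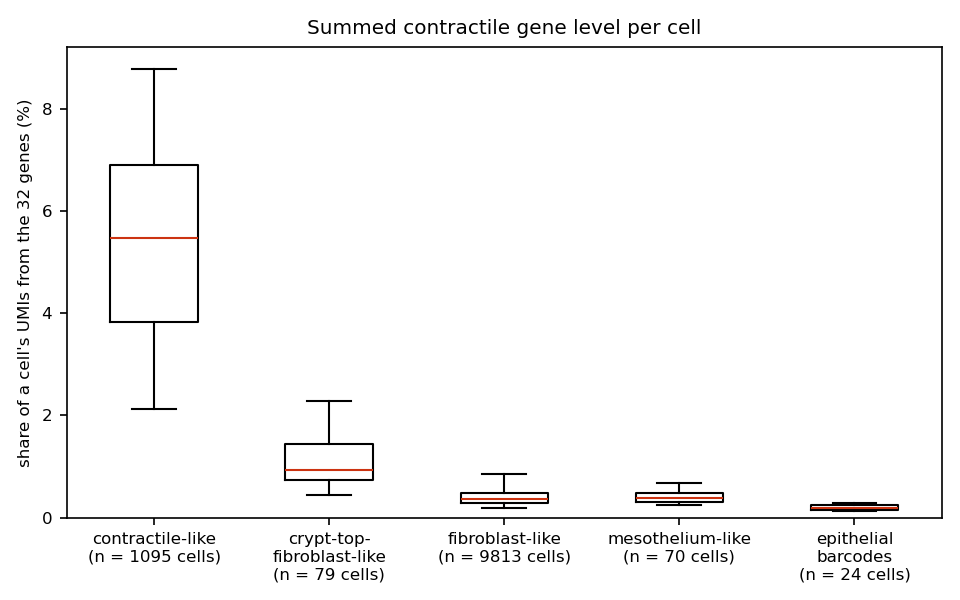
Share of each cell's UMIs that came from the 32 genes, by cell class; boxes are quartiles with the median in red and whiskers run from the 5th to the 95th percentile of cells. The contractile-like median of 5.48% stands above the crypt-top-like median of 0.940% and the fibroblast-like median of 0.371%.

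Crypt-top-like cells, fibroblasts that lie under the upper crypt and surface epithelium, held some contractile genes above and others below the fibroblast-like level. Of 24 members with at least 20 CPM in either class, 14 were at least 2 times the fibroblast-like level, beside 6.35% of all genes, and 3 were under the reciprocal limit, beside 5.48%. Acta2 had 2203 CPM in crypt-top-like against 286 CPM in fibroblast-like cells (7.69 times, 7.25 to 8.16), Tagln 1324 CPM against 158 CPM (8.35 times) and Myl9 825 CPM against 110 CPM (7.48 times). Des was on the other side, with 16.7 CPM in crypt-top-like and 78.7 CPM in fibroblast-like cells (9 UMIs, ratio 0.213, 0.0972 to 0.404), as were Pgm5 (7.44 against 28.4 CPM) and Synm (16.7 against 37.0 CPM). Set against the contractile-like level, crypt-top-like cells had 81.6% for Cald1, 62.9% for Pdlim3, 21.8% for Acta2, 17.6% for Tagln, 9.39% for Myh11, 6.45% for Cnn1 and 3.64% for Actg2. Contractile genes in these 79 cells were therefore not in the proportions seen in contractile-like cells. Myh11 was found in 18.1% of crypt-top-like cells at 3000 UMIs (10.0 to 28.9), against 3.76% of fibroblast-like cells.

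The contractile-like cells were themselves divided, again without the 32 genes, into sub-clusters of which 5 held at least 50 cells. Sub-cluster 0 (316 cells, led by Gas1, Pilra and Hhip) had the highest level for 21 of the 29 genes above 20 CPM, among them Acta2 (13703 CPM), Myh11 (2167 CPM) and Actg2 (4781 CPM). Sub-cluster 1 (251 cells, led by Myl4 and Gpr20) had the highest Des (677 CPM), Actc1 (218 CPM) and Tagln (9853 CPM), and the lowest Itga8 (24.4 CPM). Des was at 313 CPM and Actc1 at 115 CPM in sub-cluster 0, so that the genes did not share 1 order. Sub-cluster 3 (178 cells) was led by Rgs5 and Igfbp2, and there Rgs5 had 786 CPM and Acta2 13334 CPM. Sub-cluster 4 (144 cells, led by Stmn2 and S100a4) had the highest Myocd (64.8 CPM) and the lowest Actc1 (50.9 CPM). Sub-cluster 2 (190 cells) had the lowest level for 26 of the 29 genes. Its cells had a median of 10976.5 UMIs, against 5181 to 5702 in the other 4, and Dcn, a fibroblast gene, at 4747 CPM. The part of doublets in that sub-cluster was not tested. From the lowest to the highest sub-cluster the genes differed 1.53 times (Cald1) to 4.28 times (Actc1). How many of all genes were highest or lowest in each sub-cluster was not computed, so these counts have no background.

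**Figure D4:**
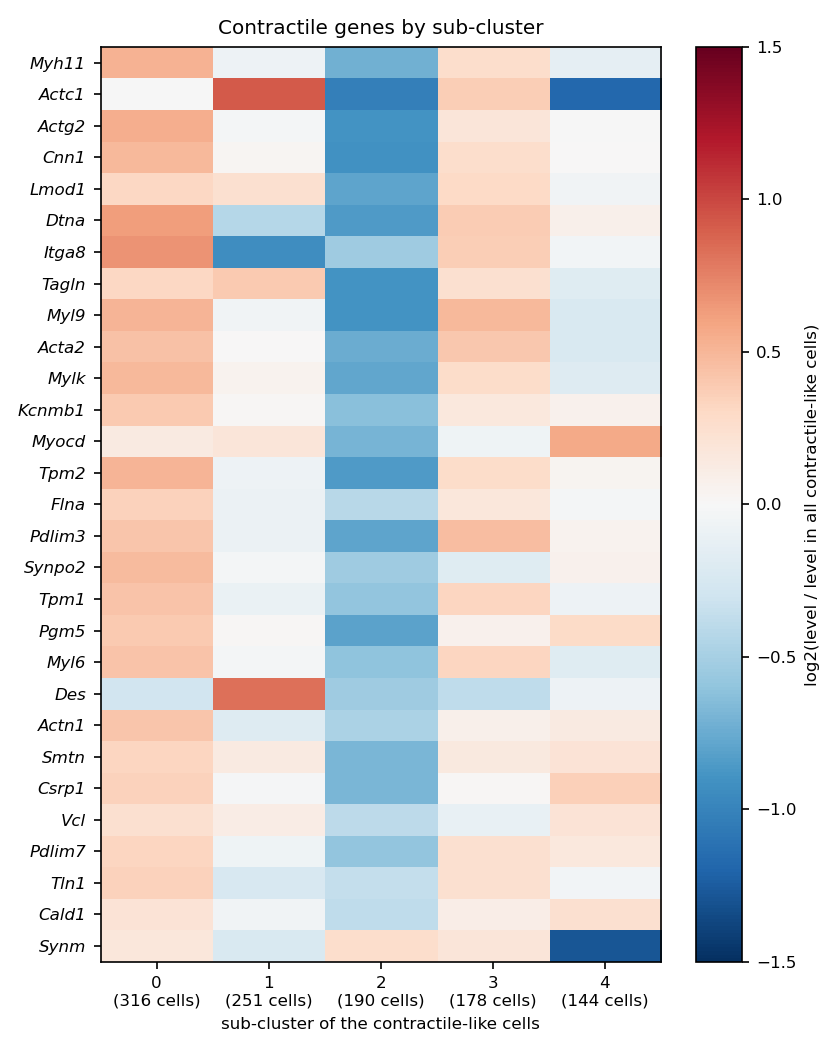
Level of 29 genes in 5 sub-clusters of the contractile-like cells, as log2 of the ratio to the level in all contractile-like cells (red higher, blue lower). Sub-cluster 2 is lower for 28 genes, all but Synm, and Des and Actc1 are highest in sub-cluster 1.

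Genes of neighbouring pathways were set beside the members. Of 15 non-muscle counterparts of the members, 4 were at least 2 times higher in contractile-like than in fibroblast-like cells: Actb (8522 against 3121 CPM, 2.73 times), Actg1 (3243 against 1547 CPM, 2.10 times), Cnn2 (435 against 163 CPM, 2.68 times) and Actn4 (315 against 110 CPM, 2.85 times). The median ratio of these 15 was 1.16. Among genes of the myosin phosphatase and cGMP route and its regulators, 8 of 9 reached 2 times: Mrvi1 (9.75), Ppp1r12b (7.07), Prkg1 (5.55), Ppp1r12a (4.71), Ppp1r14a (2.89), Pde5a (2.74), Ppp1cb (2.68) and Gucy1b1 (2.22). Of these 8, Mrvi1, Ppp1r12b, Prkg1, Ppp1r14a and Pde5a were among the markers that named the contractile-like cluster, so that naming had fixed their direction, and 3 were not. Srf itself had 54.8 CPM in contractile-like cells (2.49 times), and the transcription factor gene Mef2c had 83.4 against 11.6 CPM (7.21 times). Mkl2, a cofactor of SRF, had a ratio of 0.972.

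Calcium handling had 3 of 6 measured genes at least 2 times higher, with Casq2 (calsequestrin, 114 against 2.17 CPM, 52.4 times), Kcnma1 (pore of the channel that Kcnmb1 modulates, 60.0 against 1.62 CPM, 37.1 times) and Itpr1 (2.55 times). Casq2 was a naming marker too, and crypt-top-like cells held it at 113 CPM. Of 9 receptors of visceral smooth muscle only the endothelin receptors Ednrb (13.0 times) and Ednra (2.53 times) were measured above 20 CPM. Both were higher in crypt-top-like cells, where Ednrb, a leading gene of that cluster, had 251 CPM against 25.6 CPM in contractile-like cells and Ednra had 242 CPM against 155 CPM. The muscarinic receptor genes Chrm2 and Chrm3 had 0.136 and 0.273 CPM in contractile-like against 0.356 and 1.04 CPM in fibroblast-like cells (1 and 2 against 22 and 64 UMIs). Other muscle genes that reached 2 times included Hspb7 (49.0), Nexn (6.67), Itga1 (6.24), Filip1l (5.68), Lpp (5.20), Hspb1 (4.60), Tgfb1i1 (3.68), Itga5 (3.07), Palld (3.00), Ilk (2.34), Itgb1 (2.30) and Fhl1 (2.16). Nexn, Hspb7 and Fhl1 were naming markers, and Fhl1 had 1430 CPM in crypt-top-like against 1367 CPM in contractile-like cells. No measured gene of these lists was lower in contractile-like cells by that margin, beside 6.29% of all genes.

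In open chromatin, the windows of the 32 genes (gene body with 10 kb on both sides) held 626 peaks in the Myofibroblast list, 506 in MRISC, 507 in CD34 SP and 638 in CD138, with peaks in the overlap of Tpm2 and Tln1 counted for both. Per 100 kb of window this was 18.7 Myofibroblast, 15.1 MRISC, 15.2 CD34 SP and 19.1 CD138 peaks, beside 10.1, 10.9, 9.31 and 11.7 over 21938 protein-coding genes. The windows were thus rich in peaks in all 4 lists. Each list is a single deposited set from 2 libraries, and the lists differ in length (179351 Myofibroblast, 177054 MRISC, 143411 CD34 SP and 216805 CD138 peaks) and in median peak width (162, 227, 305 and 174 bases). Peaks that the authors listed as specific to Myofibroblast were found for 31 of the 32 genes, all but Myl9, beside 77.9% of protein-coding genes. MRISC-specific peaks were found for 28 (beside 72.8%), CD34 SP-specific peaks for 29 (beside 62.8%) and CD138-specific peaks for 30 (beside 78.4%). Such peaks made up 50.5% of the members' Myofibroblast peaks, beside 53.1% over all genes.

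More peaks in the Myofibroblast list than in each other list were found for 10 genes (Myh11, Cnn1, Tpm2, Ldb3, Npnt, Actc1, Cacna1c, Myocd, Pgm5 and Tln1), beside 16.8% of protein-coding genes. More peaks did not always mean more open bases. Of these genes, only Myh11, Npnt, Actc1 and Cacna1c also had the largest share of window bases under Myofibroblast peaks. Over the 32 genes the median share covered was 6.51% in Myofibroblast, 8.56% in MRISC, 11.2% in CD34 SP and 7.62% in CD138. Over all genes it was 2.67, 4.11, 4.02 and 3.16% in the same order. Tpm2 and Tln1 share 10 of their 15 and 21 Myofibroblast peaks. Among the restricted genes the 10 were 5 of 17, among the enriched 2 of 11, and all 3 low genes. Myh11 (chr16:14194535-14291372, minus strand) had 30 Myofibroblast peaks against 14 MRISC, 9 CD34 SP and 26 CD138 peaks, of which 20, 8, 3 and 16 were list-specific. Cacna1c, the longest gene of the set, had the most Myofibroblast peaks, 89 against 60 MRISC, 29 CD34 SP and 83 CD138. Cald1 had 51 against 36, 46 and 52 in the same order, and Mylk had 43 against 38, 38 and 51. The fewest were 4 Myofibroblast peaks each for Des (4 MRISC, 6 CD34 SP, 6 CD138), Kcnmb1 (4, 3 and 6) and Actc1 (2, 1 and 1). Acta2 (chr19:34241090-34255590, minus strand) had fewer Myofibroblast peaks than those of any other list, 7 against 9 MRISC, 13 CD34 SP and 13 CD138. Actg2 had 11 against 5, 5 and 12, Cnn1 8 against 7, 7 and 6, and Tagln 7 against 10, 8 and 7.

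Promoters of the contractile genes were mostly open in every population. A peak within 1 kb of a start was found for all 32 genes in Myofibroblast, beside 66.8% of protein-coding genes, for 29 in MRISC (68.6%), for 29 in CD34 SP (66.3%) and for 31 in CD138 (69.8%). All 4 lists had such a peak for 28 genes, beside 59.3%, and for 15 of the 17 restricted genes. These background shares are over all protein-coding genes, expressed or not, and expressed genes alone were not compared. Myh11, Cnn1, Lmod1 and Myocd had promoter peaks in the MRISC, CD34 SP and CD138 lists too. Fibroblast-like cells held these genes at 15.9, 15.6, 8.79 and 1.72 CPM, but those are not the same cells. The RNA came from gp38+CD90+ cells of DSS-treated female mice and the peaks from populations sorted from male mice. The fibroblast-like clusters were not matched to the sorted populations. By rank of the authors' score within each list, the promoter peaks of these genes stood highest in Myofibroblast. The percentiles for Cnn1 were 96.6 in Myofibroblast, 71.9 in MRISC, 63.0 in CD34 SP and 81.3 in CD138. For Myocd they were 95.1, 79.2, 92.9 and 68.3 in the same order. Not every member ranked so: Des stood at 91.6 in Myofibroblast and 93.2 in MRISC. The exceptions were Actc1, with a promoter peak in Myofibroblast alone, Actg2, with none in MRISC, Ldb3, with one in Myofibroblast and CD138, and Npnt, with none in CD34 SP. Within 1 kb of the 5′ end, Actc1 had 1067 bases under Myofibroblast peaks and 0 in the other lists. Actg2 had 1085 bases in Myofibroblast, 0 in MRISC, 189 in CD34 SP and 737 in CD138, and Myh11 had 1045 against 686, 764 and 624. Myofibroblast covered the most promoter bases for 8 genes (Myh11, Actg2, Cnn1, Ldb3, Actc1, Dtna, Kcnmb1 and Myocd), of which 7 are restricted and Ldb3 low, beside 4.69% of protein-coding genes. MRISC covered the most for 10 genes (beside 23.4%), CD34 SP for 10 (beside 36.7%) and CD138 for 4 (beside 7.60%). For Acta2 the order was different, with 1248 bases in Myofibroblast, 1226 in MRISC, 1689 in CD34 SP and 528 in CD138. Covered bases also reflect peak width, which had a median of 305 bases in CD34 SP and 162 in Myofibroblast. By score rank within its list the Acta2 peak at the 5′ end stood at percentile 97.4 in Myofibroblast. It stood at 91.0 in MRISC, 92.9 in CD34 SP and 88.3 in CD138.

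**Figure D5:**
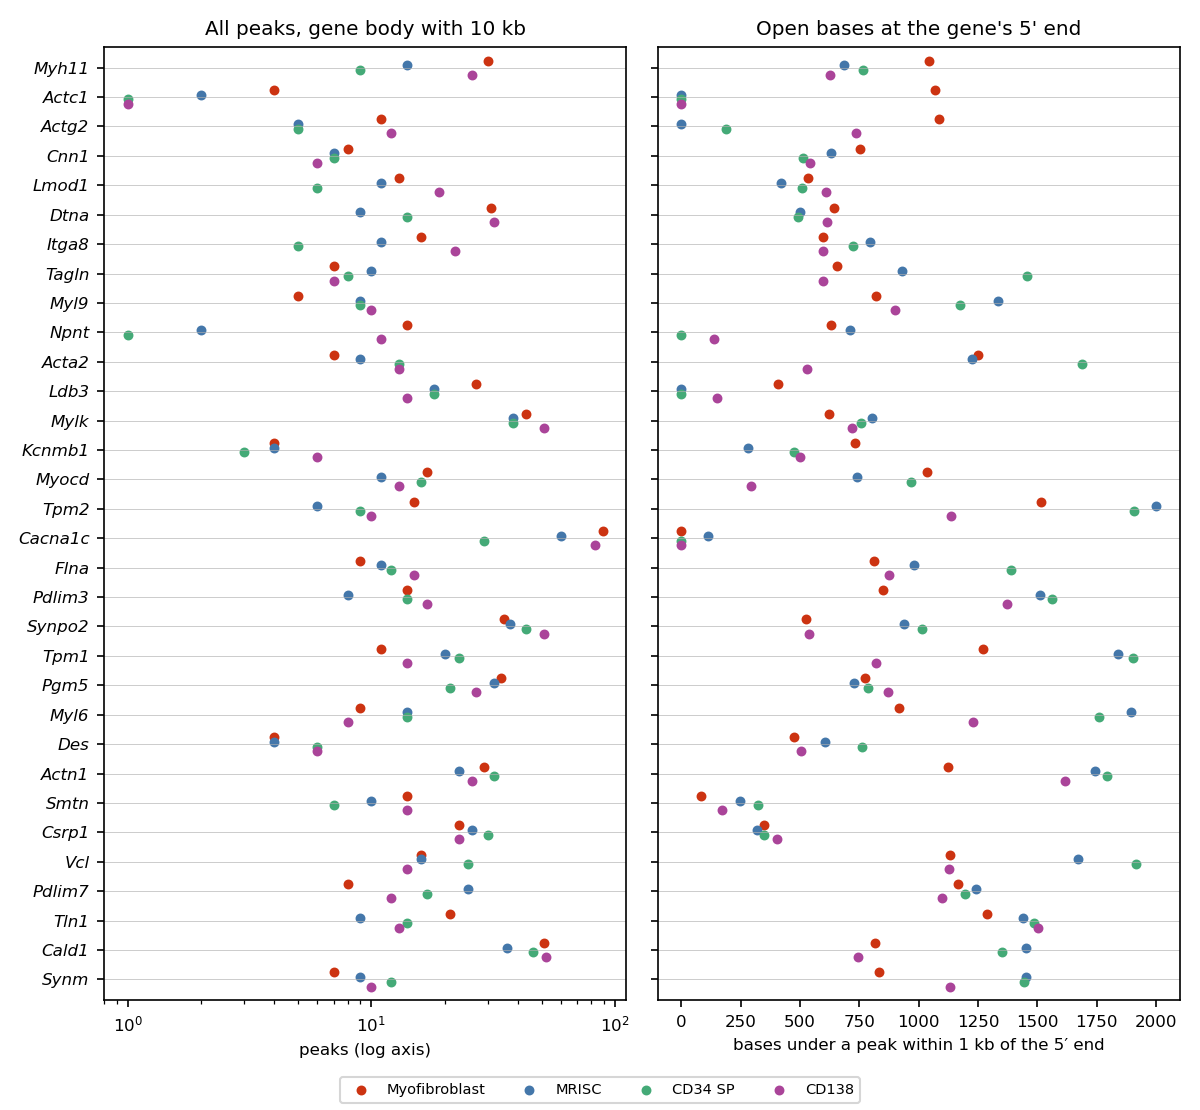
For each gene, peaks in the gene body with 10 kb on both sides (left, log axis) and bases under a peak within 1 kb of the 5′ end (right), in the Myofibroblast, MRISC, CD34 SP and CD138 lists; genes are ordered as in the plot of levels by cell class. Actc1 has 1067 promoter bases in Myofibroblast and 0 in the other 3 lists, and Cacna1c has the most Myofibroblast peaks, 89.

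The printed CArG boxes can now be set against the rest of the genome. In the promoter windows 5 of 27 genes (18.5%) held a box, beside 1.76% of 17492 protein-coding genes; 2 of them were restricted (Myl9 and Actc1), 2 enriched (Myl6 and Vcl) and 1 low (Ldb3). A MEF2 box was found for 1 gene (Synpo2), beside 0.583%, the TEAD word CATTCC for 9 genes (33.3%), beside 15.5%, and the AP-1 word TGANTCA for 3 genes (11.1%), beside 8.12%. Both strands were searched, and no match shared bases with a match of another word in the members' windows. In the 200 bases centred on each Myofibroblast peak, a CArG box stood for 31 of 616 peaks of the 32 genes (5.03%), beside 1.22% of all peaks in that list. The same shares were 4.77% beside 0.974% in MRISC, 4.99% beside 1.10% in CD34 SP and 5.06% beside 1.13% in CD138, so the excess was of similar size in each list. For Myofibroblast-specific peaks the share was 1.60% (5 of 313) beside 1.12%. The 200 bases run past the ends of narrower peaks, so a counted box can lie beside its peak. The median Myofibroblast peak was 162 bases wide. Among the 5, a Mylk box (chr16:34952905-34952914) and a Cald1 box (chr6:34642386-34642395) lay outside their peaks. Another Cald1 box (chr6:34742036-34742045) lay mostly outside.

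Of the 31 Myofibroblast peaks with a box under or beside them, 15 overlapped a peak in all 3 other lists and 5 overlapped none. By place, 17 of the peaks lay in introns and 11 at promoters. The intronic boxes of Lmod1, Csrp1, Itga8 and Tpm1 printed above lay under Myofibroblast peaks that overlapped a peak in each other list. Whether each of those other peaks covers the box itself was not checked. The Mylk box was otherwise under a CD34 SP peak, and the Pgm5 box under a CD138 peak. The peak at the Actc1 promoter box (chr2:114052705-114053178) was in the Myofibroblast list alone and on its specific list, and ranked at the 84.0th percentile of the authors' score. The Myl6 promoter box lay under a Myofibroblast peak at the 95.9th percentile, which overlapped a peak in each other list. A box is a match of letters, and no binding of SRF was measured in the files used.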

How the data were processed

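The authors deposited UMI counts, not normalized, for 1 single-cell library; the submitters' processing notes name bcl2fastq, Cell Ranger, Seurat and mm10 (10x 3' version 2 chemistry per the labels' protocols; software version 3.0.0 per the file headers). Each peak in the deposited lists carries a score. For these lists the submitters' processing notes name bcl2fastq, bedtools and mm10. The caller, what the score means and how the 2 libraries of a population became 1 list were not stated, so the score only ranked peaks within a list.

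Members, lists and limits were chosen with earlier results of these data known. Barcodes needed 500 genes or more and no more than 10% mitochondrial UMIs (84 and 82 failed, 108 in all). Cells were clustered in scanpy 1.11.5 (2000 variable genes without the members, 30 components, 15 neighbours, leidenalg 0.10.2, resolution 0.5). A cluster of at least 50 cells took a name when at least 3 fixed markers reached 20 CPM and 2 times all other cells, 1 of them among its 10 leading genes. Fibroblast-like meant at least 3 fibroblast markers at 2 times the contractile-like level, a rule set after the data were seen. Of 12 clusters, 3 had under 50 cells, and an immune-led cluster of 240 cells was left out of both classes. No doublet caller was run. Levels are pooled CPM. Intervals are exact, at 95%, and cover counting error only (Poisson for levels, Clopper-Pearson for shares and for ratios of counts). On simulated counts for the contractile-like against fibroblast-like comparison, 200 of 200 genes fell in their true class. Those counts had counting error only and folds away from the class limits. The simulation thus checked the calculation, and cannot tell how sure the class of a gene near a limit is.

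Gene positions came from GENCODE release vM21 (GRCm38, which mm10 names as well), counted from 1; promoters came from RefSeq. Named genes were Acta2, Tagln, Myh11, Actg2, Des and Cnn1, the 5 highest and 5 lowest ratios, the 3 genes with most and with fewest Myofibroblast peaks, and every low gene in full; the others by class. Some genes of the other lists are not reported here.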

Additional observations from a re-analysis of the deposited data

How the results depend on the processing

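The same 17 genes were restricted under each of 9 alternatives, and Synm was the 1 shared gene in each. The count was 18, with Ldb3 added, without cells above the 95th percentile of UMIs, after thinning to 3000 UMIs and without the deepest contractile-like sub-cluster, and 19, with Tpm1 and Pgm5 added, when free RNA was taken off at the level of epithelial and immune markers together. The alternatives on free RNA from both marker lists, on crypt-top-like cells and on the deepest sub-cluster were chosen after seeing the data. Free RNA taken off at the epithelial level moved the ratio of 10 genes by over 1.5 times (20 at the level of both marker lists), from Tagln (to 72.9) and Acta2 (to 55.8) up to Myh11 (to 524); at the level of both lists Acta2 was 1156. Genes with most peaks in Myofibroblast numbered 7 with 50 kb on both sides (beside 17.6% of protein-coding genes) and 14 in the gene body alone (beside 14.5%). They numbered 9 with peaks above the median score (beside 18.1%) and 12 with equal numbers of peaks (beside 18.5%). With 50 kb, 6 of the 10 held, and the excess over all genes was smallest. A CArG box was found for 8 genes in a window of 1000 bases before to 50 after the start (29.6%, beside 6.31% of all genes), and for 9 with 1 mismatch allowed (33.3%, beside 11.1%), so the excess over the background was smaller with the wider window and with a mismatch. No paired analysis was possible because the peak lists hold 1 set per population and the RNA came from 1 library. With 24 epithelial barcodes and 79 crypt-top-like cells, levels of a few UMIs there are uncertain.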
